A study of Mus musculus with 48 samples.

Results

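The lipolysis and lipid droplet genes are 10 genes chosen by symbol: Pnpla2, Lipe, Mgll, Abhd5, G0s2, Plin1, Plin4, Cidec, Adrb3 and Pde3b. All 10 were rows of the count table, which holds 54532 genes, and all 10 passed the filter on low counts together with 19977 genes in all. Their RNA was followed in inguinal white adipose tissue (iWAT) of male C57BL/6 mice (C57BL/6J in the study's methods) aged 8 months that either ate freely (ad-lib) or were fed in 2 windows a night (TAN). The diets were kept up for 6 months under a dark phase between 8 p.m. and 8 a.m. The TAN windows were 9 to 11 p.m. and 5 to 7 a.m., so that this schedule sets both when the mice fast and how the day's food is split, and by the study's methods TAN mice also ate slightly less; these cannot be told apart. The 48 libraries are 4 of each diet labelled 8AM, 12PM, 4PM, 8PM, 12AM and 4AM. The labels do not say that the 4 libraries of a group came from separate mice, and the p-values measure the spread between these libraries.

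White adipocytes keep triglyceride in a single large lipid droplet and break it down between meals. Catecholamines act through the β3-adrenergic receptor to raise cAMP, and protein kinase A then phosphorylates the perilipin coat and hormone-sensitive lipase, which frees the coactivator of adipose triglyceride lipase from the coat. Insulin after a meal lowers cAMP through a phosphodiesterase and raises the inhibitor of adipose triglyceride lipase, so that the pathway is mainly controlled by protein modification and location, to which mRNA levels add a slower layer.

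Total counts ran from 1.56e+07 to 2.99e+07 a library, with a median of 2.09e+07. All 8 adipocyte markers (Adipoq, Pparg, Cebpa, Fabp4, Lep, Retn, Cfd and Slc2a4) had counts in every library, with a summed level of 8261 to 63693 CPM (library counts brought to a common total with TMM factors). The 10 lymphocyte markers summed to 8.75 to 2548 CPM, with a median of 1034 CPM, and only Cd5 was at 0 in any library, in 4 of them. In bulk tissue fewer cells of a type and less RNA per cell cannot be told apart. TAN replicates 1 and 2 labelled 8PM stood apart, with the lowest means of the adipocyte markers (8.84 and 8.31 log2 CPM, against a median of 10.42 over the 48 libraries). Set against a per-animal FPKM listing that accompanies the study, over 963 genes, each of the 48 libraries was matched by the listing's column with the same animal name and a time 12 h away, and 0 by the column with its own label. The deposited mean FPKM of the 12 groups matched the count table under the same label in all 12. In the libraries labelled 4PM the clock output gene Dbp reached its highest group mean in both diets, 102 ± 19.9 CPM in ad-lib and 154 ± 58.0 CPM in TAN (SD, n = 4). The clock repressor Nr1d1 also had its highest group mean at the 4PM label, 92.3 CPM in ad-lib and 138 CPM in TAN. The clock gene Arntl was highest at the 8AM label in both diets, with 32.3 and 46.0 CPM. Per2 was highest at the 8PM label in ad-lib (21.0 CPM) and at the 12AM label in TAN (19.0 CPM). In ad-lib libraries labelled 4AM Nr1d1 ranged from 4.62 to 69.9 CPM. Which of the 2 sets of times is right was not tested. Times below are those of the labels, and contrasts that depend on the meal hours were also computed with every label moved by 12 h.

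The promoters of G0s2 and Lipe are shown because G0s2 was the member that passed a test of variation over the day and Lipe was the member least correlated with it. RefSeq start sites on GRCm38.p6 gave 11 upstream windows of 250 bases for 8 of the 10 genes, and none for Adrb3 and Pde3b. Capitals mark matches on either strand to CACGTG (the E-box of clock and carbohydrate-responsive factors), TGACGTCA (the full cAMP response element), its part TGACG, or GTAAACA (the forkhead motif). The G0s2 window is chr1:193273189-193273438 on the minus strand, and the Lipe window, that of the farther upstream of its start sites, is chr7:25395988-25396237 on the minus strand, inside the gene as the count table bounds it.
G0s2: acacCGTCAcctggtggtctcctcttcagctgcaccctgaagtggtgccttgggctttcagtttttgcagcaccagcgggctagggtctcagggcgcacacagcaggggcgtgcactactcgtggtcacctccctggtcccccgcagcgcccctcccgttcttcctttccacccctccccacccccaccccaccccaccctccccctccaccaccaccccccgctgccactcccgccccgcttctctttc
Lipe: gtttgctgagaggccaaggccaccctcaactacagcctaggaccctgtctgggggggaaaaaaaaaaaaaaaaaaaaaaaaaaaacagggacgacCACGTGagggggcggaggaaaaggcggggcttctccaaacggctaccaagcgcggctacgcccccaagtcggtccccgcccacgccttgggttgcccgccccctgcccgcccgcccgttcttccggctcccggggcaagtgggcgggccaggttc
The capitals in the G0s2 window are the reverse complement of TGACG, which begins 246 bases before the start site, and those in the Lipe window are CACGTG, 155 bases before it. CACGTG stood in 2 of the 11 windows (Lipe and Mgll) and in 6.02% of 32851 windows of the same length. GTAAACA stood in 2 of 11 (Lipe and Mgll) and in 3.17% of all. TGACG stood in 2 of 11 (Abhd5 and G0s2) and in 17.8% of all, while TGACGTCA stood in 0 of 11 and in 1.55% of all. These matches describe letters, not bound sites.

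The genes lie apart in the genome (GRCm38, as the count table gives it) and differ widely in level. Per kilobase of gene length, Cidec, which moves lipid between droplets and makes them larger, was highest, with a median of 812 CPM per kilobase (176.5 to 1915 over 48 libraries). It was above the next gene, Pnpla2, in all 48 libraries. Pnpla2 encodes adipose triglyceride lipase, which takes the first fatty acid from triglyceride, and had a median of 403 CPM per kilobase. G0s2, its inhibitor, had 268 CPM per kilobase, and was below Pnpla2 in only 28 of 48 libraries, so that these neighbours in the order were not separated. Plin1, the main coat protein of the adipocyte droplet, had 226 CPM per kilobase and was below G0s2 in 36 of 48 libraries. Lipe, hormone-sensitive lipase, followed with 124 CPM per kilobase, Mgll, which cleaves the last fatty acid, with 86.2, Adrb3, the β3-adrenergic receptor, with 71.5, Pde3b, the insulin-activated phosphodiesterase that degrades cAMP, with 56.4, and Plin4, another coat protein, with 54.8. Pde3b was above Plin4 in 23 of 48 libraries, which leaves their order unsettled. Abhd5, the coactivator of adipose triglyceride lipase, was lowest with 23.7 CPM per kilobase. The authors' group means of FPKM spanned 596 to 1320 for Cidec and 14.6 to 51.1 for Abhd5.

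Over the day, group means moved less in ad-lib than in TAN for 9 of the 10 genes. The ratio of the highest to the lowest of the 6 group means of CPM was 1.27 to 4.39 in ad-lib (median 1.60) and 1.70 to 2.85 in TAN (median 2.15), and G0s2 was the exception with 4.39 against 2.85. The share of all genes with this pattern was not computed, and the 10 genes were correlated between libraries, so the count has no background. Group medians of the summed adipocyte markers ran from 18358 to 30042 CPM in ad-lib and from 22509 to 50136 CPM in TAN. In ad-lib mice 5 of the 10 genes had their highest mean at 8AM and 7 their lowest at 8PM. In TAN mice 6 had their highest mean at 4PM (Lipe, Mgll, Plin1, Plin4, Adrb3 and Pde3b) and the other 4 at 12AM (Pnpla2, Abhd5, G0s2 and Cidec). The spread within a group differed as well: the median coefficient of variation over the 10 genes was 10.1% in TAN at 4AM and 11.4% in TAN at 8AM, but 80.6% in TAN at 8PM and 48.7% in ad-lib at 8AM. The plot of CPM by labelled time shows these spreads.

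**Figure D1:**
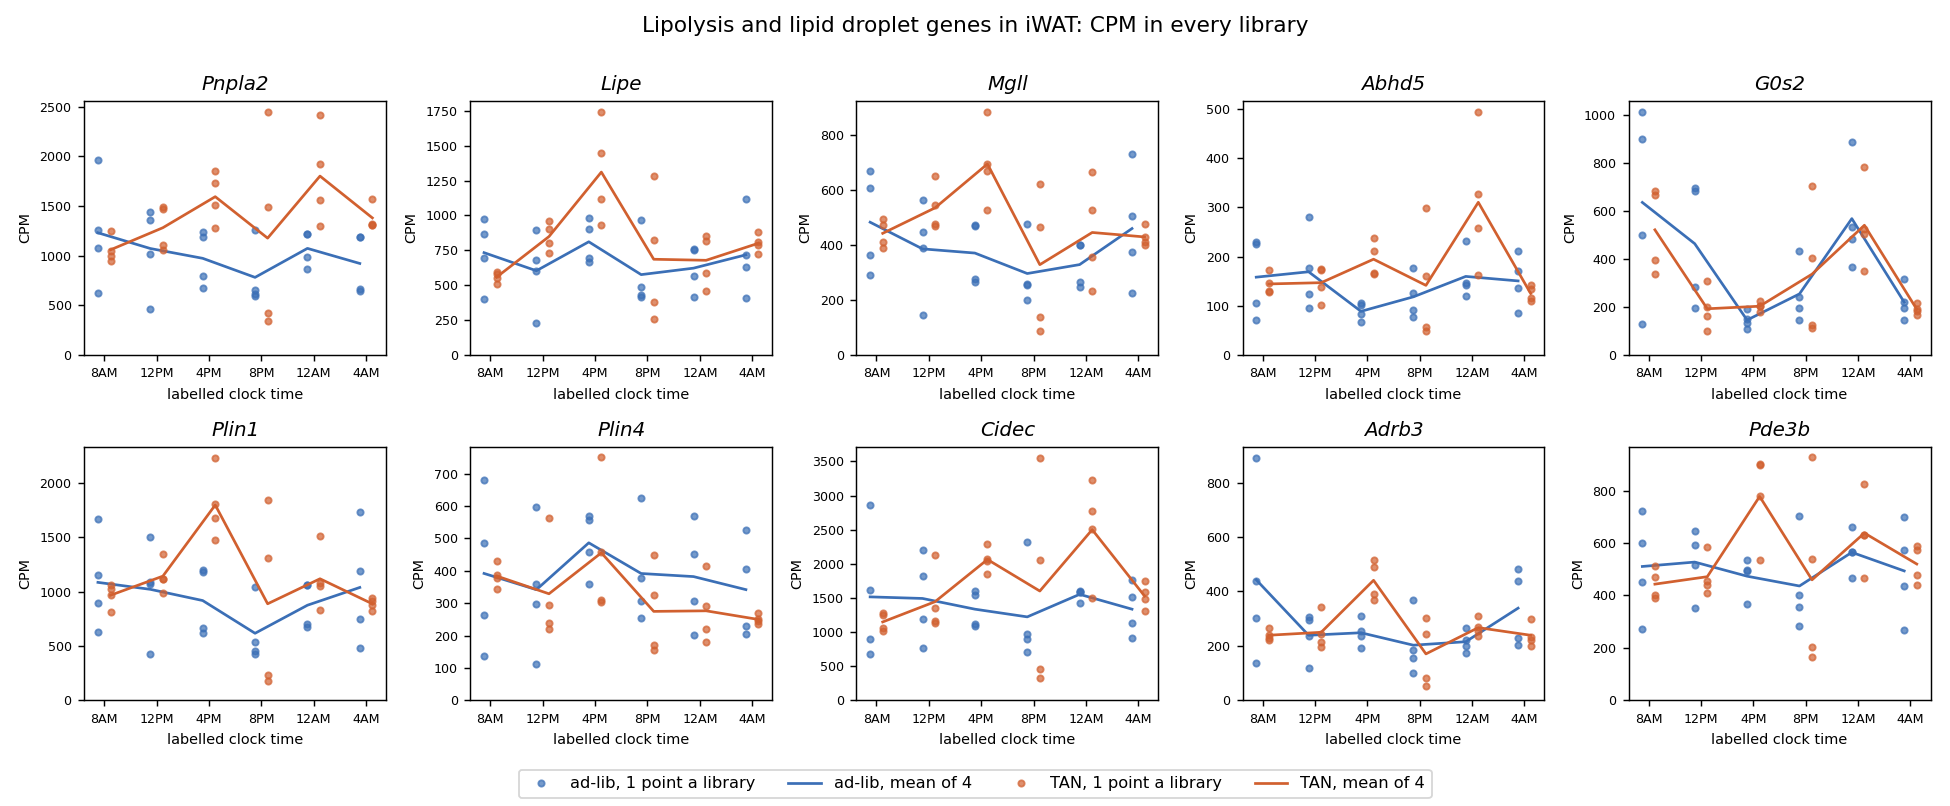
CPM (linear axis from 0) of each of the 10 genes against labelled clock time, 1 point a library, with lines through the means of the 4 ad-lib (blue) and 4 TAN (orange) libraries. The TAN means of 6 genes are highest at 4PM and those of the other 4 at 12AM, and the TAN points at 8PM are the most widely spread.

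G0s2 was the member that varied over the 6 times. It lies on chromosome 1 from 193272161 to 193273217 on the minus strand and is induced by insulin and feeding. In TAN libraries at 8AM it stood at 668, 683, 396 and 337 CPM, and at 12AM at 349, 781, 526 and 504 CPM. It was lower at 12PM (197, 161, 100 and 309 CPM), at 4PM (204, 178, 226 and 201 CPM) and at 4AM (184, 167, 193 and 216 CPM). None of the libraries at 8AM and 12AM overlapped with those at 12PM, 4PM or 4AM, a grouping made after the values were seen. At 8PM the 4 TAN libraries split, with 124 and 111 CPM in replicates 1 and 2 against 405 and 705 CPM in replicates 3 and 4. By the F test of edgeR's quasi-likelihood model, variation over the 6 times in TAN had a Benjamini-Hochberg adjusted p = 0.0202, and G0s2 was the only 1 of the 10 genes called, beside 23.0% of all genes tested. The adjusted p was 0.00522 to 0.0480 when each TAN library was left out in turn.

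Ad-lib mice showed high G0s2 at the same hours with a wider spread. At 8AM the libraries held 1012, 499, 129 and 901 CPM, and at 12AM 484, 885, 534 and 368 CPM. At 4PM they held 148, 135, 106 and 191 CPM, and at 8PM 196, 433, 146 and 241 CPM. At 12PM the values were 683, 194, 695 and 283 CPM and at 4AM 146, 220, 317 and 195 CPM, so that the groups at 12PM and 4AM overlapped with several others. The adjusted p for variation over the 6 times in ad-lib was 0.133 by edgeR's quasi-likelihood test, with 0 of the 10 genes called (1 at an unadjusted p under 0.05, which was G0s2) beside 0.0551% of all genes. It was 0.0228 with the lymphocyte markers as a covariate, where 0.165% of all genes were called, and 0.0246 with the adipocyte markers, where 0.330% were. It was 0.284 by limma voom, which also called 0 of 10.

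None of the other 9 genes passed that test in TAN. Abhd5 had an adjusted p of 0.0582 for variation over the 6 times, Lipe 0.0799, Adrb3 0.111 and the other 6 genes 0.225 to 0.512 (edgeR's quasi-likelihood test). Abhd5 in TAN was highest at 12AM with 163, 494, 327 and 258 CPM and lowest at 4AM with 141, 110, 115 and 133 CPM. Lipe, by contrast, was highest at 4PM with 935, 1745, 1116 and 1449 CPM and lowest at 8AM with 506, 578, 550 and 595 CPM. In both genes all 4 libraries of the higher group were above all 4 of the lower one. These groups were picked as the highest and lowest of the 6 means, which favours such a gap, so it adds no support. limma voom called 3 genes (Abhd5, Adrb3 and G0s2) beside 33.3% of all genes. For the same variation edgeR called 1 with no filter on low counts beside 8.89%, 2 with at least 10 counts in every library beside 44.2%, 2 with RLE factors beside 25.5%, and 2 (G0s2 and Lipe) with the replicate number as a block beside 20.6%.

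A 24-h wave fitted to each gene was called in 0 of 10 genes in ad-lib (2 at an unadjusted p under 0.05, 0.0801% of all genes called by edgeR) and in 0 of 10 in TAN (0 at an unadjusted p under 0.05, 19.8% of all genes called). A 12-h wave was called in 0 of 10 in ad-lib (1 unadjusted, G0s2, with 0.0150% of all genes called) and in 0 of 10 in TAN (2 unadjusted, G0s2 and Lipe, with 2.07% of all genes called). limma voom also called 0 of 10 in each of the 4. In TAN the 12-h amplitude of G0s2 was 0.51 on the log2 scale, with peaks at hours 9.52 and 12 h later, and that of Lipe was 0.49, with peaks at 3.04 and 12 h later. Cidec and Adrb3 in TAN also had 0.49. In ad-lib the 12-h amplitude of G0s2 was larger than in TAN, at 0.84, with peaks at hours 10.6 and 12 h later. A 12-h wave keeps its phase when the labels are moved by 12 h. With 6 time points 4 h apart it rests on few points.

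Within TAN the libraries labelled 12AM and 8AM, 1 h after a meal window closed, were set against those labelled 4PM and 8PM. The latter were 9 and 13 h after the last window closed. In this contrast meal and time of day cannot be told apart, and 'after the meal' here and below names only these labelled hours. G0s2 was 1.02 ± 0.34 higher on the log2 scale (fitted change ± SE) after the meal, and the adjusted p of 0.0737 missed the threshold (edgeR's quasi-likelihood test). Lipe, whose product acts in fasting, was lower by the same contrast, with a log2 fold change of -0.63 ± 0.26 and an adjusted p of 0.170. Abhd5 had 0.35 ± 0.28 and the other 7 genes -0.28 to 0.01. Of the 10 genes 0 were called (2 at an unadjusted p under 0.05), beside 4.30% of all genes. limma voom called 1 (G0s2, beside 5.03% of all genes) and DESeq2 called 1 (G0s2, beside 6.78% of all).

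At the same hours in ad-lib mice, which had food throughout, G0s2 was higher by 1.65 ± 0.34 on the log2 scale, with an adjusted p of 0.0573 in edgeR's quasi-likelihood model. Abhd5 had 0.64 ± 0.28 with an adjusted p of 0.425. Of the 10 genes 0 were called (2 at an unadjusted p under 0.05, and 0 by limma voom) beside 0.0350% of all genes. G0s2 was called by DESeq2 (adjusted p = 9.9e-04, 0.290% of all genes), by edgeR with at least 10 counts in every library (0.0982%) and with the lymphocyte markers as a covariate (adjusted p = 0.0193, 0.0551%). The difference between the diets was called in 0 of 10 genes by edgeR (0 at an unadjusted p under 0.05, 0 by limma voom and 0 by DESeq2) beside 0.831% of all genes, and for G0s2 it was -0.62 ± 0.48 (95% interval -1.56 to 0.31). With every label moved by 12 h the TAN contrast of G0s2 was -0.31 ± 0.34, 0 of 10 genes were called within TAN (0 at an unadjusted p under 0.05, 0 by limma voom and 0 by DESeq2) beside 0.856% of all genes, and 0 of 10 between the diets (0, 0 and 0 likewise) beside 0.901%. In ad-lib the moved contrast was negative in all 10 genes, from -0.82 in Adrb3 upwards, and called in 0 of 10 (1 at an unadjusted p under 0.05, Adrb3) and in 0% of all genes.

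**Figure D2:**
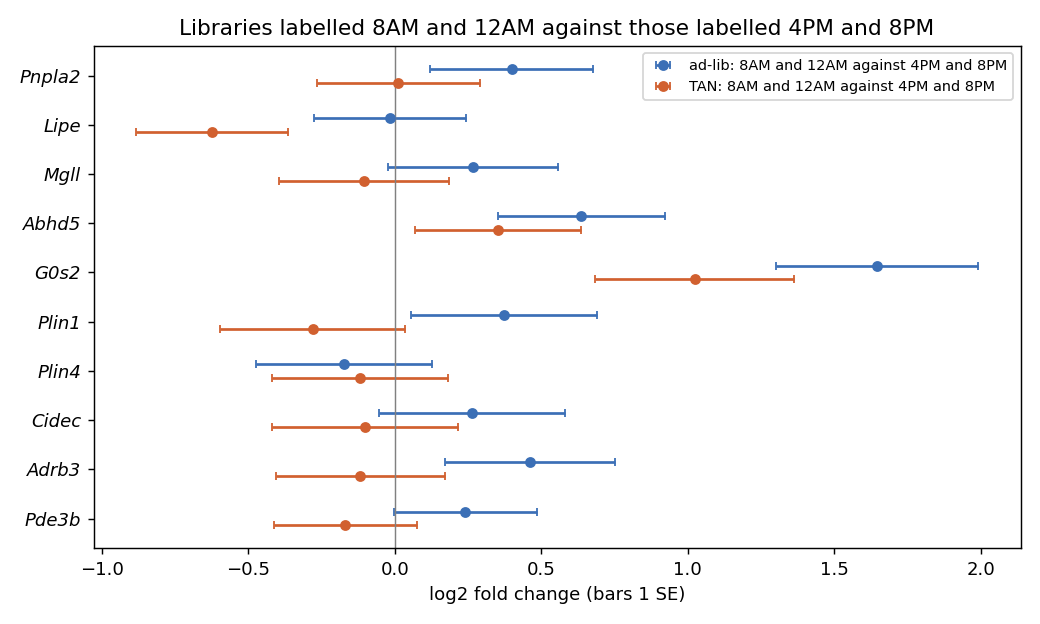
Fitted log2 fold change of libraries labelled 8AM and 12AM against those labelled 4PM and 8PM for each of the 10 genes, ad-lib in blue and TAN in orange, with bars of 1 SE. G0s2 lies farthest to the right in both diets, at 1.65 and 1.02, and Lipe in TAN lies farthest to the left, at -0.63.

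The RNA of the inhibitor was set beside that of its lipase as the ratio of G0s2 to Pnpla2, both in CPM per kilobase, in the same library. It was 1.75 ± 0.71 in TAN at 8AM (SD, n = 4) and 0.453 ± 0.10 in TAN at 4PM. In ad-lib it was 1.68 ± 0.85 at 8AM and 0.531 ± 0.11 at 4PM. At 12PM the ratio was 0.964 to 1.77 in the ad-lib libraries and 0.314 to 0.731 in the TAN libraries, and at 4AM 0.643 to 1.05 and 0.405 to 0.572, so that the diets did not overlap at either time. At 8AM, 4PM, 8PM and 12AM they overlapped. At 8PM the 4 TAN libraries, which differed several-fold in each gene, held nearly the same ratio, 0.944 to 1.13. These ratios were added after the values were seen and carry no test. The share of other gene ratios without overlap between the diets was not computed, so the lack of overlap at 12PM and 4AM has no background to be read against. Protein was not measured here.

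Between the diets, 0 of the 10 members were called at 4PM, 9 h into the daily fast by the labels, beside 15.3% of all genes. The fitted log2 fold change of TAN against ad-lib was positive in 9 of the 10 genes, with a median of 0.71 over the 10 and of -0.09 over all genes tested. It was largest for Abhd5, on chromosome 9 from 122351608 to 122381524 on the plus strand. Its ad-lib libraries held 105, 100, 66.4 and 82.1 CPM and its TAN libraries 238, 166, 212 and 164 CPM. Every TAN library was above every ad-lib library. The log2 fold change was 1.14 ± 0.41 with an adjusted p of 0.0501, just outside the threshold of edgeR's quasi-likelihood test.

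Plin1, on chromosome 7 from 79720218 to 79732903 on the minus strand, held 670, 1182, 621 and 1199 CPM in ad-lib and 1473, 2231, 1803 and 1679 CPM in TAN at 4PM. Mgll, on chromosome 6 from 88724412 to 88828360 on the plus strand, held 267, 471, 275 and 469 CPM and 529, 884, 696 and 670 CPM. In both genes the diets did not overlap, and the ad-lib libraries formed a high and a low pair, replicates 2 and 4 being high. Their log2 fold changes were 0.97 ± 0.45 (adjusted p = 0.126) and 0.91 ± 0.41 (adjusted p = 0.118), both in edgeR's quasi-likelihood model.

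Pnpla2, on chromosome 7 from 141455198 to 141460743 on the plus strand, held 790, 1187, 673 and 1238 CPM in ad-lib and 1277, 1856, 1508 and 1731 CPM in TAN, a log2 fold change of 0.71 ± 0.39. Cidec, on chromosome 6 from 113424634 to 113435760 on the minus strand, ranged from 1090 to 1596 CPM in ad-lib and from 1849 to 2290 CPM in TAN (0.63 ± 0.45). Adrb3, on chromosome 8 from 27225776 to 27250616 on the minus strand, ranged from 191 to 311 CPM and from 367 to 516 CPM (0.83 ± 0.41). The diets did not overlap in these 3 genes either.

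The remaining 4 genes overlapped between the diets at 4PM. Pde3b, on chromosome 7 from 114415281 to 114539251 on the plus strand, had a log2 fold change of 0.72 ± 0.35. Lipe, on chromosome 7 from 25379527 to 25398710 on the minus strand, had 0.69 ± 0.37. G0s2 had 0.48 ± 0.48, and Plin4, on chromosome 17 from 56100591 to 56109803 on the minus strand, had -0.09 ± 0.43, with 304 to 751 CPM in TAN inside and beyond the 360 to 569 CPM of ad-lib.

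In counts, all 4 TAN libraries were above all 4 ad-lib libraries at 4PM in 6 of the 10 genes and in 12.8% of all genes, and below them in 0 of 10 and in 17.8% of all. The fit with a spread shared by all 48 libraries called 0 of the 10 genes at 4PM (4 at an unadjusted p under 0.05, all higher in TAN), beside 15.3% of all genes, 6.54% higher and 8.77% lower. DESeq2 called 1 (Abhd5, adjusted p = 0.0250) beside 23.0% of all genes, and limma voom called 1 (Abhd5, adjusted p = 0.0448) beside 17.7%. With at least 10 counts in every library edgeR also called Abhd5, beside 25.2%. A fit of the 8 libraries at 4PM alone, whose spread is smaller, called 6 (Abhd5, Adrb3, Cidec, Mgll, Pde3b and Plin1) beside 27.2% of all genes. Leaving out each of the 8 libraries in turn from the shared fit called 0 of 10 each time.

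**Figure D3:**
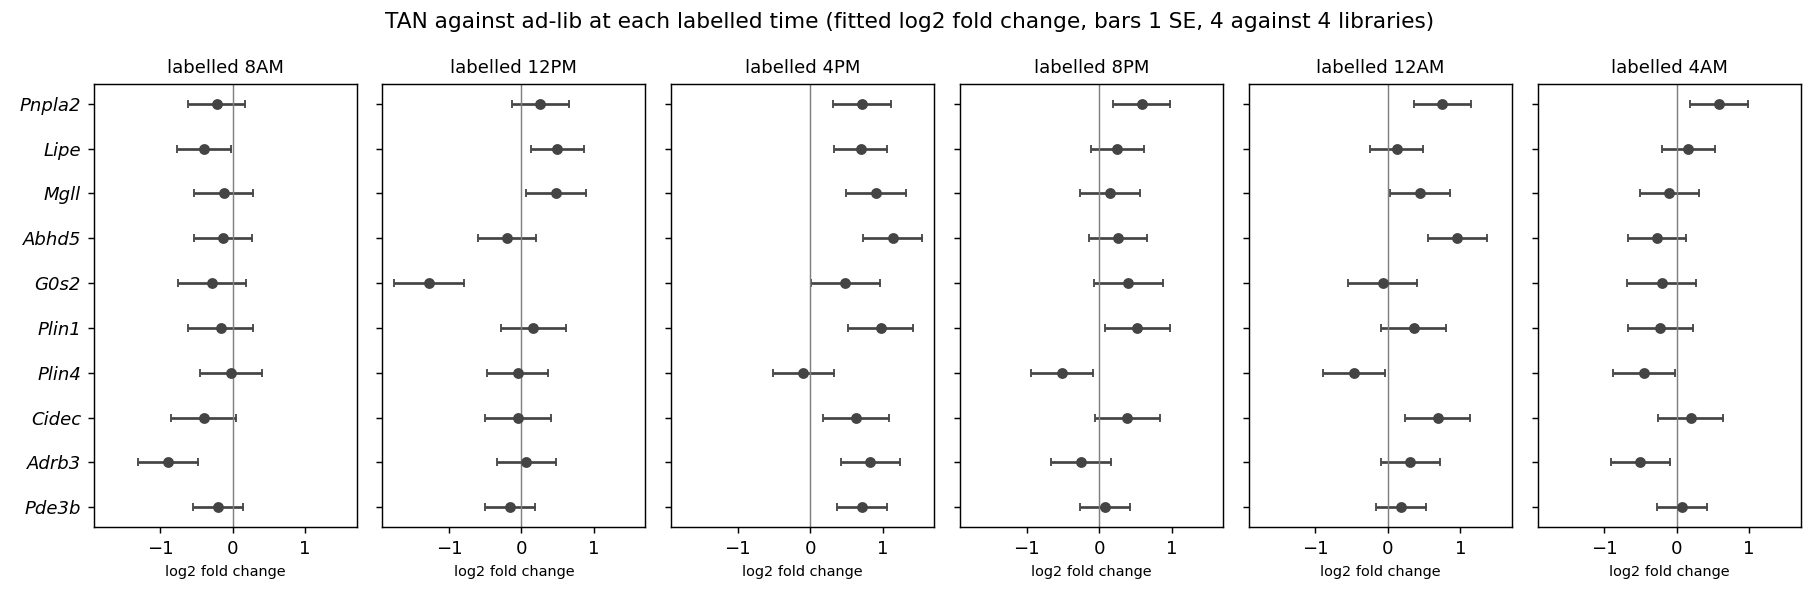
Fitted log2 fold change of TAN against ad-lib for each of the 10 genes in a panel for each labelled time, with bars of 1 SE (4 against 4 libraries). At 4PM 9 of the 10 points lie to the right of 0, up to 1.14 for Abhd5, while at 8AM all 10 lie to the left.

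Cell type markers moved with the difference at 4PM. The summed level of the 8 adipocyte markers was 35258 to 63693 CPM in the TAN libraries and 15643 to 22484 CPM in the ad-lib libraries, and 3 of the 8 were called higher in TAN (Retn, Fabp4 and Slc2a4). The summed level of the 10 lymphocyte markers was 8.75 to 327 CPM in TAN and 931 to 1605 CPM in ad-lib. The 6 macrophage markers summed to 345 to 1561 CPM in TAN and 1271 to 2040 CPM in ad-lib. With the mean of the adipocyte markers as a covariate the log2 fold changes at 4PM were 0.04 ± 0.18 for Abhd5, -0.10 ± 0.28 for Plin1, -0.01 ± 0.28 for Mgll and -0.60 ± 0.20 for Cidec. With the lymphocyte markers they were 0.33 ± 0.33 for Abhd5, 0.26 ± 0.42 for Plin1, 0.23 ± 0.39 for Mgll and -0.20 ± 0.39 for Cidec. Several adipocyte markers (Lep, Retn, Cfd and Slc2a4) are themselves regulated by feeding, so the covariate may remove regulation along with cell share, and the part of the markers in the difference was not tested further.

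The tie to the adipocyte markers held over the whole series. Over the 48 libraries, which share diet and time groups, Pearson's r of log2 CPM with the mean of the 8 adipocyte markers was 0.94 for Abhd5, 0.91 for Cidec, 0.85 for Pde3b and Pnpla2, 0.82 for Plin1, 0.74 for Adrb3, 0.73 for Mgll, 0.65 for G0s2, 0.60 for Lipe and 0.27 for Plin4. With the lymphocyte markers it was -0.30 (Plin4) to -0.69 (Abhd5). These are descriptions over libraries and not independent tests.

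**Figure D4:**
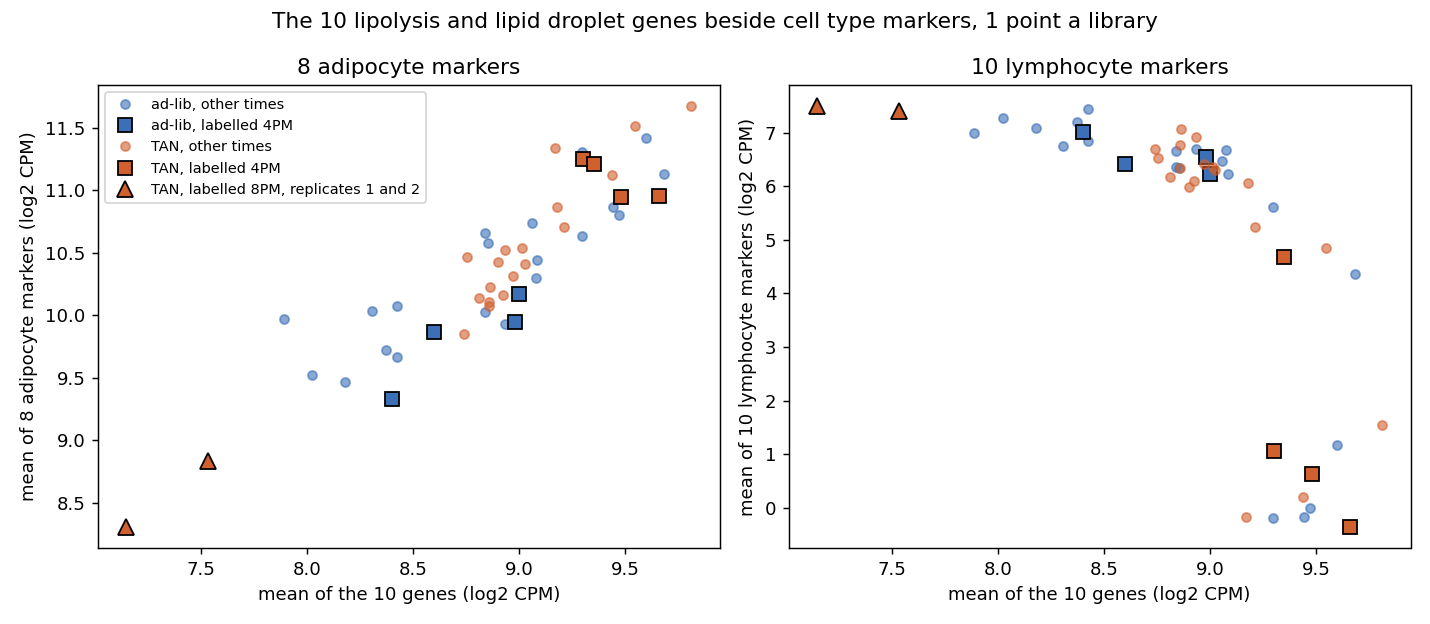
Mean log2 CPM of the 10 genes (horizontal axis) against the mean of 8 adipocyte markers (left) and of 10 lymphocyte markers (right), 1 point a library, ad-lib in blue and TAN in orange, squares for 4PM and triangles for TAN replicates 1 and 2 at 8PM. The TAN squares lie at 10.95 to 11.25 log2 CPM of the adipocyte markers and the ad-lib squares at 9.33 to 10.17, and in the left panel the triangles lie lowest.

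At the other times fewer members than at 4PM had an unadjusted p under 0.05, and Pnpla2 and Cidec had a larger fitted difference at 12AM (0.75 and 0.69) than at 4PM. At 8PM, 13 h into the fast by the labels, Pnpla2 held 592, 610, 657 and 1262 CPM in ad-lib and 421, 342, 1487 and 2451 CPM in TAN, and Plin1 held 453, 427, 541 and 1046 CPM and 230, 176, 1307 and 1838 CPM. TAN replicates 1 and 2 were the lowest of the 8 libraries and replicates 3 and 4 the highest, so the diets overlapped fully. Of the 10 genes 0 were called (0 at an unadjusted p under 0.05, and 0 by limma voom and by DESeq2), beside 11.7% of all genes, 3.76% higher and 7.91% lower. All TAN libraries were above all ad-lib libraries in 4.55% of all genes and below in 11.6%, and in 0 of 10 members either way. Without TAN replicates 1 and 2, a choice made after the values were seen and on adipocyte markers that track the members, 3 genes were called (Pnpla2, 1.33 ± 0.36, Plin1, 1.35 ± 0.39, and Cidec, 1.195 ± 0.41) beside 10.8% of all genes.

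At 12AM, 1 h after the first meal window closed, Pnpla2 held 987, 865, 1222 and 1215 CPM in ad-lib and 1298, 1562, 2417 and 1926 CPM in TAN. Every TAN library was above every ad-lib library, as in 3.59% of all genes (5.54% below), and the log2 fold change was 0.75 ± 0.39. Abhd5 had 0.96 ± 0.40 (adjusted p = 0.214 in edgeR's quasi-likelihood model), and its values of 142, 232, 119 and 145 CPM in ad-lib overlapped with the 163, 494, 327 and 258 CPM of TAN. Of the 10 genes 0 were called (1 at an unadjusted p under 0.05, and 0 by limma voom and by DESeq2) beside 0.150% of all genes.

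At 4AM Pnpla2 again did not overlap, with 662, 1186, 1189 and 643 CPM in ad-lib and 1573, 1312, 1320 and 1312 CPM in TAN, where 1.91% of all genes were above and 1.18% below. Its log2 fold change was 0.58 ± 0.39, and 0 of 10 genes were called (0 at an unadjusted p under 0.05, and 0 by limma voom and by DESeq2) beside 0% of all genes. At 8AM all 10 log2 fold changes were negative, from -0.89 ± 0.41 for Adrb3 to -0.03 for Plin4. The Adrb3 value rested on ad-lib libraries that held 890, 304, 137 and 439 CPM, replicate 1 being the highest of the 48 libraries, against 227, 223, 267 and 240 CPM in TAN. Here 0 of 10 genes were called (1 unadjusted, and 0 by limma voom and by DESeq2) beside 0.0150% of all genes. No member was free of overlap at 8AM, where 2.03% of all genes were above and 1.05% below.

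At 12PM, 5 h after the second meal window closed, G0s2 was lower in TAN by a log2 fold change of -1.27 ± 0.48 (adjusted p = 0.582 in edgeR's quasi-likelihood model). The diets overlapped, since ad-lib replicates 2 and 4 held 194 and 283 CPM within the TAN range of 100 to 309 CPM. Of the 10 genes 0 were called (1 unadjusted, and 0 by limma voom and by DESeq2) beside 0.0901% of all genes, and 0 of 10 were free of overlap, where 3.30% of all genes were above and 1.54% below.

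Averaged over the 6 times, Pnpla2 had the largest difference between the diets, with a log2 fold change of 0.45 ± 0.16 (adjusted p = 0.0885 in edgeR's quasi-likelihood model). Mgll had 0.29 ± 0.17, Plin4 -0.27 ± 0.17 and G0s2 -0.16 ± 0.19. Of the 10 genes 0 were called (1 at an unadjusted p under 0.05) beside 5.42% of all genes, 2.68% higher and 2.74% lower, and the median log2 fold change was 0.23 over the 10 and -0.08 over all genes. limma voom called 0, and DESeq2 called Pnpla2 (adjusted p = 0.0497) beside 7.95% of all genes. Without TAN replicates 1 and 2 at 8PM edgeR called 3 (Mgll, Plin1 and Pnpla2) beside 12.3%. The difference between the diets itself varied between times in 0 of 10 genes (0 at an unadjusted p under 0.05, 0 by limma voom) beside 8.98% of all genes, the lowest adjusted p being 0.179 for Abhd5.

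With the adipocyte markers as a covariate, which compares the members at equal levels of those markers, G0s2 and Lipe changed in opposite directions in TAN by the labelled hours. Several of these markers are themselves regulated by feeding, so the covariate may remove regulation along with cell share. At the labelled hours after the meal against those late in the fast, G0s2 was higher by 1.003 ± 0.20 on the log2 scale and Lipe had -0.62 ± 0.18. The adjusted p was 8.2e-04 and 0.0186 by edgeR's quasi-likelihood test, with 2 of 10 genes called beside 13.4% of all genes. These values hold for the labels as given. With every label moved by 12 h and no covariate, 0 of 10 genes were called within TAN, beside 0.856% of all genes. G0s2 also varied over the 6 times in TAN (adjusted p = 2.5e-05), as did Lipe and Mgll, 3 of 10 beside 24.9%. Averaged over the times G0s2 was lower in TAN, with a log2 fold change of -0.37 ± 0.12 (adjusted p = 0.0437), 1 of 10 beside 7.21% of all genes. With the lymphocyte markers in their place, the after-meal contrast of G0s2 was 1.33 ± 0.28 (adjusted p = 0.00151), 1 of 10 beside 9.41%, and that of Lipe -0.36 ± 0.22 (adjusted p = 0.322). Without TAN replicates 1 and 2 at 8PM and with no covariate, G0s2 had 0.66 ± 0.34 (adjusted p = 0.216) and Lipe -0.94 ± 0.24 (adjusted p = 0.0169) in that contrast by edgeR's quasi-likelihood test, 1 of 10 beside 5.95% of all genes, and 3 genes varied over the 6 times in TAN (Abhd5, G0s2 and Lipe) beside 18.4% of all genes.

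Among themselves the members were positively correlated from library to library, G0s2 and Plin4 least so. Pearson's r of log2 CPM over the 48 libraries had a median of 0.71 over the 45 pairs. It was highest for Mgll and Plin1, at 0.95, and for Cidec and Pnpla2, at 0.91. The 9 pairs with G0s2 had a median of 0.36, the 9 with Plin4 0.50, and the 28 pairs without either 0.79. The lowest pair was G0s2 and Lipe, at 0.08, followed by Abhd5 and Plin4, at 0.09. The genes outside the group whose log2 CPM was most like the members' mean (of standardised values, over the 48 libraries) were Fitm2, Smoc1 and Gpt2, with r of 0.94, 0.93 and 0.93. Each member's own nearest gene was Pdk2 for Pnpla2 (0.92), H6pd for Lipe (0.92), Cavin1 for Mgll (0.93), Plin1 (0.93) and Adrb3 (0.88), Derl1 for Abhd5 (0.96), Ppp1r3c for G0s2 (0.88), Tom1l2 for Plin4 (0.86), Fcgrt for Cidec (0.94) and Prkar2b for Pde3b (0.94).

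Around the members, other lists of the same pathway were read beside the shares of all genes, and differences between the lists were not tested. At 4PM the 8 adipocyte markers had a median log2 fold change of 1.24 in TAN against ad-lib, with 3 called higher and 0 lower. Of 14 other lipid droplet and lipolysis genes 4 were called higher in TAN at 4PM and 0 lower, beside 6.54% and 8.77% of all genes, with a median log2 fold change of 0.83 (-0.09 over all genes). They were Cidea (1.72 ± 0.42), a droplet protein of brown and beige fat, the coat protein genes Plin2 (1.09 ± 0.34) and Plin3 (0.66 ± 0.18), and Bscl2 (1.07 ± 0.29), which encodes seipin. Averaged over the 6 times Cidea (1.19 ± 0.17) and Plin2 (0.67 ± 0.14) were called, 2 of 14 higher and 0 lower, beside 2.68% and 2.74% of all genes. In TAN after the meal Plin2 was the only 1 of the 14 called, higher by 1.08 ± 0.24, as were 3.30% of all genes. Plin2 in TAN stood at 1003 ± 313 CPM at 12AM and at 257 ± 170 CPM at 8PM (SD, n = 4).

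A list of 13 genes held the cAMP arm that stimulates lipolysis and Npr1, whose product, a natriuretic peptide receptor, makes cGMP instead. Of these 13, 1 was called higher and 1 lower in TAN at 4PM, near the shares of all genes (6.54% and 8.77%). They encode catalytic subunits of protein kinase A, Prkaca with 1.33 ± 0.31 and Prkacb with -0.67 ± 0.22, and the median over the 13 was 0.23. Of 13 genes of the antilipolytic receptors and the insulin arm, again 1 was called higher and 1 lower, near the same shares, the median being 0.59. They were Ptger3, an inhibitory prostaglandin E2 receptor, with 2.19 ± 0.65, and Pde4b, a phosphodiesterase, with -1.95 ± 0.53. Pde4b stood at 14.3 CPM in TAN and 55.4 CPM in ad-lib, while the lymphocyte markers summed to 8.75 to 327 CPM and 931 to 1605 CPM. The part of lymphocyte RNA in the Pde4b difference was not tested. Averaged over the times Prkaca (0.49 ± 0.13), Ptger3 (1.33 ± 0.26) and the adenosine A1 receptor gene Adora1 (0.60 ± 0.16) were called higher in TAN, 1 of 13 and 2 of 13 genes beside 2.68% of all genes. Ptger3 stood at 245 ± 74.9 CPM in TAN and 66.4 ± 16.2 CPM in ad-lib at 12AM. Over the 6 times in TAN 5 of the 13 antilipolytic genes varied (Pde4d, Acvr1c, Pde4b, Ptger3 and Irs1), beside 23.0% of all genes. In the list of the cAMP arm 1 of 13 varied, and this was Npr1, the gene of the cGMP receptor. Of the 14 droplet genes 2 varied (Plin2 and Hilpda), beside the same 23.0%.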

How the data were processed

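The authors selected poly-A RNA and deposited raw counts per gene in each library, and mean FPKM of each group without a spread. The submitters' processing notes name TopHat 1.3.3, DESeq2 1.20.0, limma and edgeR and the builds mm9, mm10 and GRCm38. The strand setting is not given in the sources used here. Gene coordinates equal those of GENCODE M21 in 98.1% of the 54532 genes and in all 10 members. The series text names the stromal vascular fraction of iWAT as the material, and the study's methods name whole tissue. Groups were read from the labels, 0 columns of sample values were left unused, and 0 libraries were identical.

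Genes were filtered with filterByExpr (minimum count 10), scaled with TMM and fitted with edgeR 4.0.16 in R 4.3.3, as 1 robust quasi-likelihood model of 12 groups. A gene was called at a Benjamini-Hochberg adjusted p under 0.05 over all 19977 genes. CPM used TMM factors, and log2 CPM a prior count of 2. Covariates were the mean log2 CPM of a marker list. The model was checked on simulated counts. limma 3.58.1 (voom) and DESeq2 1.42.0 were alternatives, beside other filters, RLE factors, mitochondrial genes left out, a fold threshold, the replicate number as a block, fits by time, moved labels and libraries left out.

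The members and lists were chosen with earlier results of these data known. All 10 members are named, from each other list up to 3 called genes (4 for the droplet genes at 4PM and 5 for the antilipolytic genes over time in TAN, where those beyond 3 were added after their values were seen), and the nearest genes by Pearson's r.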

Additional observations from a re-analysis of the deposited data

Results flagged for a closer look

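In 5 of the 120 sets of 4 libraries (10 genes in 12 groups) 1 library lay far from the other 3 by Dixon's criterion, where chance gives about 1 in 20. Replicate 4 of the ad-lib libraries at 8PM was high in 3 genes, with 1262 CPM of Pnpla2 against 592 to 657 CPM in the others, 966 CPM of Lipe against 416 to 489 CPM, and 2312 CPM of Cidec against 707 to 971 CPM. That library also held more of the adipocyte markers (34634 CPM summed) and less of the lymphocyte markers (579 CPM) than the other 3, and their part in these values was not tested. Replicate 1 of the TAN libraries at 4AM held 1573 CPM of Pnpla2 against 1312 to 1320 CPM. Replicate 3 of the ad-lib libraries at 12AM held 1431 CPM of Cidec against 1583 to 1606 CPM.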

How the results depend on the processing

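Of the values of single genes under the alternatives, 669 kept their direction and their side of the threshold, 33 passed it and 23 changed sign. They cover chosen genes and contrasts, and most come from fits with 1 library left out. All except the variation of G0s2 over time in TAN were uncalled in the main fit. Keeping the side of the threshold therefore mostly meant staying uncalled. Shares in brackets are those of all genes called in the same fit. At 4PM 1 gene (Abhd5) was called with at least 10 counts in every library (25.2%), with RLE factors (3204 of 19977 genes), by limma voom (17.7%) and by DESeq2 (23.0%), and 6 in a fit of that time alone (27.2%). For variation over the 6 times in TAN, where 1 was called, 2 were called with at least 10 counts in every library (44.2%) and with RLE factors (25.5%), and 3 by limma voom (33.3%) and with the adipocyte covariate (24.9%). After the meal in TAN 1 was called by limma voom (5.03%), by DESeq2 (6.78%) and with the lymphocyte covariate (9.41%) and 2 with the adipocyte covariate (13.4%). Averaged over the times 1 was called by DESeq2 (7.95%) and with the adipocyte covariate (7.21%). Over time in ad-lib 1 was called with the lymphocyte (0.165%) and with the adipocyte covariate (0.330%). A 24-h wave in TAN was called in 1 with the lymphocyte (22.9%) and 3 with the adipocyte covariate (31.7%), a 12-h wave in TAN in 1 with either (1.09% and 3.52%), and a 12-h wave in ad-lib in 1 with the adipocyte covariate (0.0451%).

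Without TAN replicates 1 and 2 at 8PM, chosen after seeing the data, 3 genes were called at 8PM (10.8%), 3 over time in TAN (18.4%), 3 averaged over the times (12.3%), 1 after the meal (5.95%), 1 (Abhd5) for a diet difference that varied between times (17.4%), 1 (Plin1) for the meal difference between the diets (8.82%), and 5 for a 24-h wave in TAN (26.1%).

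With each library left out in turn the counts were 1 to 5 over time in TAN (5 without TAN replicate 4 at 8PM, 36.4%, and 2 without TAN replicate 1 at 12AM, 32.3%), 0 to 3 for a 12-h wave in TAN (3 without TAN replicate 4 at 8PM, 17.4%), 0 to 1 averaged over the times (1 without ad-lib replicate 4 at 8AM, 8.17%, or TAN replicate 1, 6.66%, or 2, 7.11%, at 8PM), 0 to 1 over time in ad-lib (1 without ad-lib replicate 3 at 8AM, 0.102%), 0 to 1 after the meal in TAN (1 without TAN replicate 4 at 8PM, 7.36%) and 0 in the others. The ad-lib contrast of G0s2 at the meal hours was called without ad-lib replicate 2 or 3 at 8AM or replicate 2 at 8PM.

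Signs turned at 4PM with the adipocyte covariate: Cidec -0.60, Pnpla2 -0.23, Plin1 -0.10, Lipe -0.017, Pde3b -0.11, Mgll -0.012, G0s2 -0.68 and Adrb3 -0.10. With the lymphocyte covariate they were Cidec -0.20, Pnpla2 -0.022, Pde3b -0.040 and G0s2 -0.39. Plin4 at 4PM ranged from -0.42 to 0.057 with 1 library left out. At 8PM limma voom gave Cidec -0.074 and Plin1 -0.024, the lymphocyte covariate Cidec -0.015, and the adipocyte covariate Cidec -0.076 and Plin1 -0.0023. With 1 library left out at 8PM the ranges were Cidec -0.36 to 0.90, Pnpla2 -0.049 to 0.92 and Plin1 -0.10 to 0.90, the lowest without TAN replicate 4. The cause was not tested.

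With the replicate number as a block 2 genes (G0s2 and Lipe) varied over time in TAN (20.6%), and no other count of calls changed. Of the 24 same-numbered pairs 5 had a correlation of residuals over 0.1, so the numbers were not taken to pair libraries. Leaving out libraries with over 10 times the median lymphocyte level was not run, since 0 libraries exceeded it. That rule says little here, because the median was itself 1034 CPM and the highest library held 2548 CPM. It does not address the libraries with few lymphocyte markers, down to 8.75 CPM, and no fit left these out as a set. Groups held 4 libraries each, with within-group coefficients of variation up to 95.1%.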
